A study of Homo sapiens with 9 samples.

Results

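Aminoacyl-tRNA synthetases attach each amino acid to its transfer RNA (tRNA). The genes for these enzymes, and for the scaffold proteins that hold part of them together, were followed in LAN5 cells after knockdown of MYCN or HAND2. Members were chosen by gene symbol: 1 letter of an amino acid followed by ARS, with or without the number 1, 2 or 3, together with EPRS1, FARSA, FARSB, AIMP1, AIMP2 and EEF1E1. This rule found 41 of the 25084 genes in the table. They comprised 20 cytosolic enzyme genes, TARS3 (a second cytosolic threonyl enzyme), 17 mitochondrial enzyme genes (suffix 2) and 3 scaffold genes. All 41 had at least 1 CPM in at least 3 libraries and were tested. A CPM value is the read count of a gene scaled to a common library total.

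LAN5 is an established human neuroblastoma line with many extra copies of the MYCN gene. Its cells received small interfering RNAs (siRNAs) by nucleofection, an electroporation method, and total RNA was sequenced 72 h later, in 3 libraries per group. The groups were a control siRNA (siCTR), an siRNA labelled siMYCN_2 (here siMYCN) and an siRNA labelled siHAND2_3 (here siHAND2), and all 3 shared the line, the nucleofection and the medium. Each target was thus represented by 1 siRNA in 1 line, and the labels do not state whether libraries of a group came from separate cultures, so p-values measure the spread between these libraries.

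Most cytosolic enzymes have a separate mitochondrial counterpart encoded by another nuclear gene, and the mitochondrial set charges the tRNAs of the mitochondrial genome. GARS1 and KARS1 each give rise to both a cytosolic and a mitochondrial form, which gene counts do not separate. Several cytosolic enzymes are bound in the multi-synthetase complex by the scaffolds AIMP1, AIMP2 and EEF1E1. Many cytosolic synthetase genes are known targets of ATF4, the transcription factor of the amino acid response, and MYC proteins are known for raising genes of protein synthesis.

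The libraries held 21.1 M to 32.7 M assigned reads, taken from the steps between low CPM values, so that counting error alone gives 1 CPM a coefficient of variation of 17.5% to 21.8%. MYCN measured 1842 ± 54.2, 1289 ± 47.0 and 914 ± 48.4 CPM and HAND2 501 ± 13.7, 571 ± 15.9 and 272 ± 7.65 CPM in siCTR, siMYCN and siHAND2 (SD, n = 3 libraries each). The level of MYCN was therefore lower in siHAND2 than in siMYCN, with a log2 fold change of -0.50 between them. The summed level of 10 neuroblastoma markers was 1499 to 1631 CPM in siCTR, 2034 to 2108 CPM in siMYCN and 1644 to 1799 CPM in siHAND2. The 6 fibroblast markers in the table summed to 197 to 199.6, 241 to 247 and 431 to 487 CPM, with COL1A1 under 1 CPM in all 9 libraries, and 5 blood and endothelial markers summed to 0.753 to 1.62 CPM. Of the neuroblastoma markers, 9 of 10 were called higher in siMYCN, and 4 were higher and 3 lower in siHAND2. Of the 5 fibroblast markers that passed the filter on low values, 5 were called higher in siMYCN, and in siHAND2 4 were higher and THY1 lower. Among them PDGFRA measured 121 ± 4.49, 144 ± 3.49 and 341 ± 27.7 CPM in siCTR, siMYCN and siHAND2. The neuroblastoma and fibroblast sums moved with the groups, and their part in the results on synthetases was not tested. In bulk RNA, fewer cells of a type and less RNA per cell cannot be told apart.

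The promoters of the members were read first, because the knockdowns concern factors that bind DNA. RefSeq (GRCh38.p14) windows of 300 bases, from 250 bases before to 50 bases after the start, were found for 33 of the 41 genes and 27305 windows were searched in all. Those without a matched window included AARS2, LARS1, TARS3, VARS1, VARS2 and YARS1. Where a symbol had several windows, the first listed was used. The windows of CARS2 and MARS1 lie well inside the listed gene spans, which begin at 110713603 (CARS2, minus strand) and 57475445 (MARS1). On either strand, 3 spellings were searched: CACGTG, the E-box of MYC and MAX; TGATGNAA, the core of an element bound by CHOP and ATF4; and CATCTG, an E-box variant of HAND and TWIST dimers. In no member window did matches of different spellings among these 3 overlap.

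CACGTG stood in 4 of the 33 windows (12.1%), those of CARS2, EARS2, IARS1 and MARS2, against 7.43% of all windows. The letters TGATGNAA stood in 7 of 33 (21.2%) against 3.67% of all windows, and 6 of those 7 belonged to cytosolic enzymes, that is 6 of 16 cytosolic windows (37.5%). All 6 cytosolic matches read TGATGCAA, a spelling found in 0.923% of all windows and counted separately only after the matches had been seen. CATCTG stood in 4 of 33 (12.1%), in CARS2, MARS1, NARS2 and RARS2, against 14.8% of all windows. A match describes letters and does not show binding. The stretches below hold the CACGTG and TGATGNAA matches in capitals, on the strand of the gene, from 70 bases before to 30 bases after the start. In AARS1 and YARS2 the match lies further upstream and the stretch runs from 230 to 131 bases before the start, and in IARS1 it begins 200 bases before the start so as to hold both matches. Where the element lies on the other strand, the capitals show its reverse complement.
AARS1 promoter, chr16:70289637-70289736, minus strand: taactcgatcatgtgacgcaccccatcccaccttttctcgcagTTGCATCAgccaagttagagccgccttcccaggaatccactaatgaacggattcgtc
CARS1 promoter, chr11:3057394-3057493, minus strand: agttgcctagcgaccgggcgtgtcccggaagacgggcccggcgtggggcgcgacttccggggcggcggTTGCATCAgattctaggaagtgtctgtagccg
IARS1 promoter, chr9:92293668-92293897, minus strand: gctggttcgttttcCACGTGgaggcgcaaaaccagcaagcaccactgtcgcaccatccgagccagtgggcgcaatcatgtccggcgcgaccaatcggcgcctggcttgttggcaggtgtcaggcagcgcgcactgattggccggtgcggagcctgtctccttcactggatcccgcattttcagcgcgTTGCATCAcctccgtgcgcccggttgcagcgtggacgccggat
MARS1 promoter, chr12:57487998-57488097, plus strand: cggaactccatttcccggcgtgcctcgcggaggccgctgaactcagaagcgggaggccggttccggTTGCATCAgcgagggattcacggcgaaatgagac
NARS1 promoter, chr18:57621807-57621906, minus strand: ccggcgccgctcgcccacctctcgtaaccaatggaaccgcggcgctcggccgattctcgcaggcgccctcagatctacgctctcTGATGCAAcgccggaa
TARS1 promoter, chr5:33440895-33440994, plus strand: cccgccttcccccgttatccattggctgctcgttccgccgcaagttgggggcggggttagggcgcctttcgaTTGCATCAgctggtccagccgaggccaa
YARS2 promoter, chr12:32756028-32756127, minus strand: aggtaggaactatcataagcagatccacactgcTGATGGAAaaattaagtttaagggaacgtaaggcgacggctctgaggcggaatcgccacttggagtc
CARS2 promoter, chr13:110706486-110706585, minus strand: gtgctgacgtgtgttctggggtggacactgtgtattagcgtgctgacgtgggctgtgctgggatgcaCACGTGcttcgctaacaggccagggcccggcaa
EARS2 promoter, chr16:23557321-23557420, minus strand: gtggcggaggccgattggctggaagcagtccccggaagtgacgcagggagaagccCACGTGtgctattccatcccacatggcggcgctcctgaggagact
MARS2 promoter, chr2:197705299-197705398, plus strand: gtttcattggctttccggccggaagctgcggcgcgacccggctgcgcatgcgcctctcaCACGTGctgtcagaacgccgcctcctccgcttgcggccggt

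In these stretches the ATF4-type match had its first base within 15 bases of the start in CARS1, IARS1, MARS1, NARS1 and TARS1. The CACGTG of CARS2, EARS2 and MARS2 had its first base within 15 bases before the start, and that of CARS2 ran across it. IARS1, for the isoleucyl enzyme, was the member with both. The calls described below put the 4 CACGTG genes on the lower side in siHAND2 (4 of 4) and 3 of them, EARS2, IARS1 and MARS2, on the lower side in siMYCN. Of all 41 members 16 were lower in siHAND2 and 22 in siMYCN, against 11.8% and 11.4% of all genes, and the siHAND2 call of MARS2 was lost under 3 of 15 alternatives. Of the 7 genes with TGATGNAA, IARS1 and NARS1 were called lower in siMYCN and the other 5 were not called there. In siHAND2, IARS1 was called lower, MARS1 higher and the other 5 not.

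Levels in the control were compared between genes per kilobase of the canonical transcript, since CPM grow with transcript length. The 20 cytosolic genes had a median of 52.0 CPM per kilobase in siCTR and the 17 mitochondrial genes a median of 14.8. SARS1, the seryl enzyme, stood highest at 126 ± 1.33 CPM per kilobase (SD, n = 3 libraries), followed by TARS1 at 93.7 ± 0.968, IARS1 at 92.5 ± 0.834 and KARS1 at 89.9 ± 3.61. TARS1, IARS1 and KARS1 differed from their neighbours among these 3 by little more than their SDs or less, while SARS1 stood apart by many SDs. The lowest cytosolic value was that of FARSB (12.0 ± 0.107), whose canonical transcript of 6761 bases is the longest among the members. The mitochondrial genes ran from PARS2 (2.87 ± 0.0666) and MARS2 (3.51 ± 0.143) up to IARS2 (30.6 ± 0.378), and TARS3 stood at 5.00 ± 0.0818. The scaffolds lay between, at 19.5 for EEF1E1, 24.5 for AIMP1 and 32.3 for AIMP2.

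**Figure D1:**
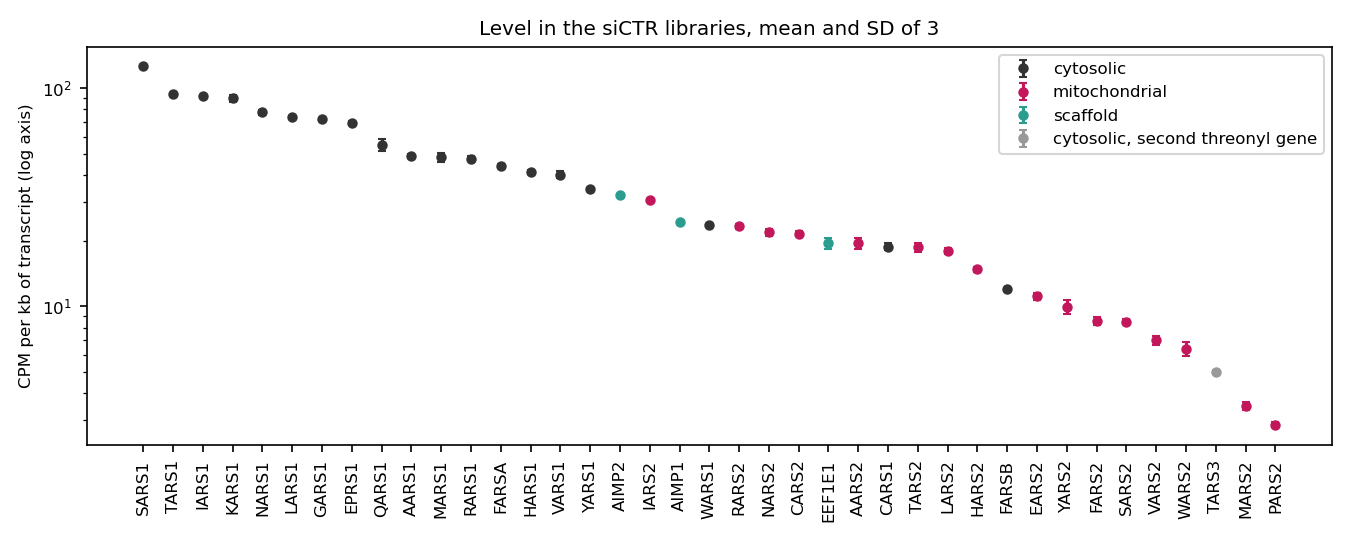
Control level of 39 of the 41 genes in CPM per kilobase of canonical transcript (logarithmic axis), as the mean (point) and SD (bar) of 3 siCTR libraries, ordered from high to low and coloured by class. The mitochondrial enzymes lie mostly in the lower part, between 2.87 and 30.6 CPM per kilobase, and SARS1 leads at 126.

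In siMYCN, 22 of the 41 genes were lower than in siCTR (53.7%) and 4 were higher (9.76%). Over all 14495 genes tested, 11.4% were called lower and 24.5% higher, 35.9% in all. A gene was called when its limma p-value, with Benjamini-Hochberg adjustment across the 14495 genes, was under 0.05, and that fit gave every adjusted p and standard error below. Fold changes are on the log2(CPM + 1) scale. The median log2 fold change was -0.17 over the 41 members and 0.06 over all genes. Of the 41, 27 had all 3 siMYCN libraries below all 3 siCTR libraries (16.1% of all genes did) and 6 had them all above (33.4%), 49.5% of all genes being apart in either direction. Under median-ratio rescaling 16.3% of all genes were called lower and 26 of the 41 members were.

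**Figure D2:**
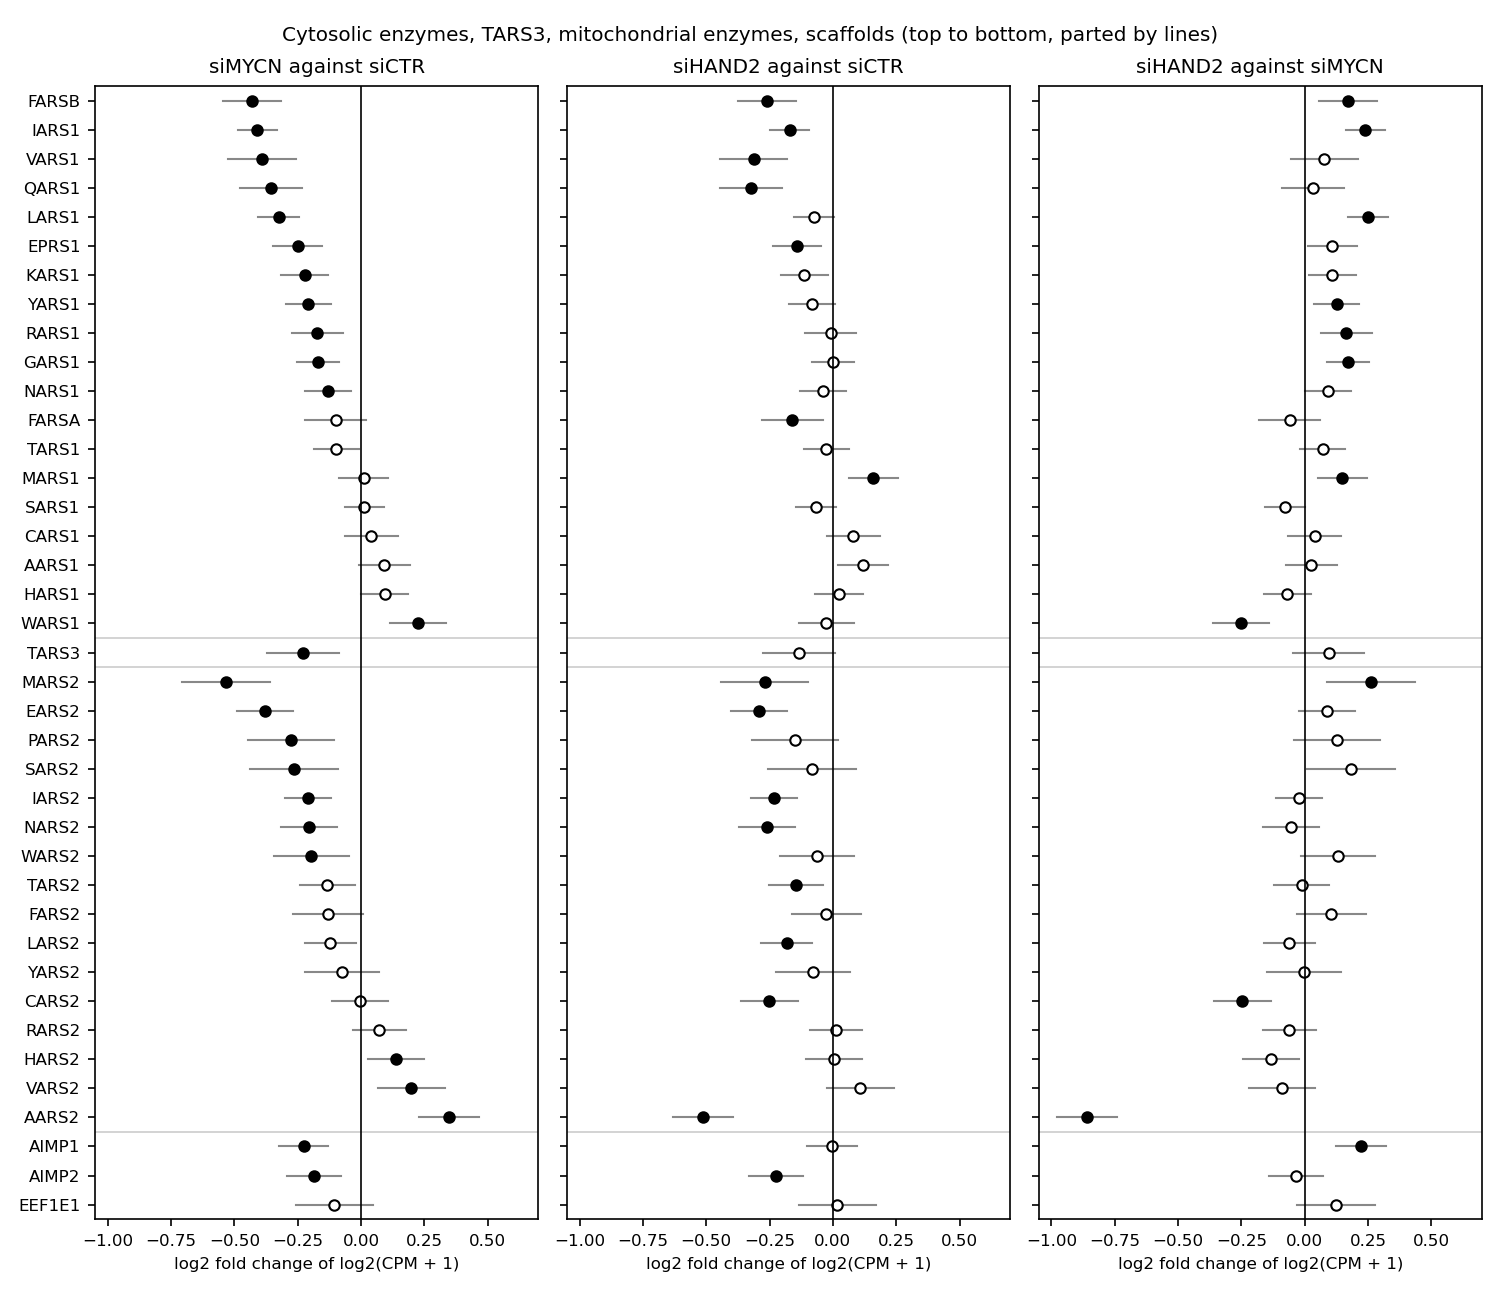
Log2 fold change of log2(CPM + 1) of 39 of the 41 genes in each comparison (1 panel each), with 95% confidence intervals as lines and filled points where the adjusted p is under 0.05. Most points lie left of 0 against siCTR, and AARS2 lies right of 0 in siMYCN and left of it in siHAND2.

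Most enzymes of the multi-synthetase complex fell. Of its 8 enzyme genes, among them EPRS1, IARS1, LARS1, MARS1, QARS1, RARS1 and KARS1, 7 fell in siMYCN and MARS1 was not called. Their median log2 fold change was -0.29. Their summed level was 1829 ± 17.2 CPM in siCTR, 1497 ± 11.7 CPM in siMYCN and 1682 ± 57.7 CPM in siHAND2 (SD, n = 3 libraries each), so the siMYCN sum was 81.9% of the control. No siMYCN library overlapped the siCTR libraries in this sum.

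IARS1 (chromosome 9, 92210207 to 92293756, GRCh38) measured 415, 418 and 411 CPM in the siCTR libraries, 311, 309.7 and 316 in the siMYCN libraries and 372, 359 and 373 in the siHAND2 libraries. The 3 groups did not overlap, with siCTR highest and siMYCN lowest. Its log2 fold change in siMYCN was -0.41 (standard error 0.04, adjusted p = 5.19e-07). QARS1 (chromosome 3, 49095932 to 49105130), the glutaminyl enzyme, measured 133, 144 and 127 CPM in the siCTR libraries, 111, 105 and 99.0 in the siMYCN libraries and 114, 101 and 107 in the siHAND2 libraries. Both knockdowns lay below the control and overlapped each other, and the siMYCN change was -0.36 (standard error 0.06, adjusted p = 0.000172).

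LARS1, the leucyl enzyme that also senses leucine, fell by 0.33 on the log2 scale (adjusted p = 6.38e-06). EPRS1, which charges both glutamate and proline tRNAs, fell by 0.25 (adjusted p = 0.000444) and RARS1, the arginyl enzyme, by 0.17 (adjusted p = 0.00948). KARS1 (chromosome 16, 75627474 to 75648643), the lysyl enzyme of both compartments, measured 186, 179.7 and 171 CPM in the siCTR libraries, 157, 149 and 154 in the siMYCN libraries and 172, 161 and 163 in the siHAND2 libraries. It fell in siMYCN, where no library overlapped siCTR, with a log2 fold change of -0.22 (standard error 0.04, adjusted p = 0.00088). KARS1 overlaps 871 bases of TERF2IP on the opposite strand, which rose by 0.21 in siMYCN, opposite to KARS1. The use of strand in counting is not given in the sources used here.

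Of the 3 scaffold genes of the complex, 2 fell in siMYCN (AIMP1 and AIMP2) and 1 in siHAND2 (AIMP2). AIMP1 measured 67.4, 67.7 and 68.5 CPM in the siCTR libraries, 57.0, 59.0 and 57.6 in the siMYCN libraries and 66.6, 65.1 and 71.4 in the siHAND2 libraries. The siMYCN libraries lay below all others, and siHAND2 overlapped siCTR. The siMYCN change was -0.23 (standard error 0.05, adjusted p = 0.0012). AIMP1 shares 1140 bases with TBCK on the opposite strand, which rose by 0.20 in siMYCN. AIMP2 measured 38.1, 39.3 and 38.5 CPM in the siCTR libraries, 33.6, 34.1 and 33.7 in the siMYCN libraries and 34.1, 31.5 and 33.3 in the siHAND2 libraries, and both knockdowns lay below the control. Its changes were -0.19 (standard error 0.05, adjusted p = 0.00839) in siMYCN and -0.22 (standard error 0.05, adjusted p = 0.00317) in siHAND2. AIMP2 shares 1588 bases with EIF2AK1, an eIF2α kinase gene on the opposite strand at 319% of its level, and the log2 fold changes of EIF2AK1 were -0.08 in siMYCN (not called) and -0.15 in siHAND2 (adjusted p = 0.00932). The part of the shared bases in these values was not tested. EEF1E1 measured 19.0, 21.4 and 20.8 CPM in the siCTR libraries, 19.9, 17.6 and 19.2 in the siMYCN libraries and 19.8, 19.7 and 22.6 in the siHAND2 libraries, the groups overlapped, and no comparison called it.

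Among the 12 cytosolic enzymes outside the complex, 5 fell in siMYCN, 1 rose and 6 were not called, with a median of -0.10. FARSB (chromosome 2, 222566899 to 222656092), the beta subunit of the phenylalanyl enzyme, measured 81.7, 80.4 and 80.5 CPM in the siCTR libraries, 57.7, 60.6 and 61.1 in the siMYCN libraries and 63.4, 65.5 and 73.7 in the siHAND2 libraries. All 3 siMYCN libraries lay below all siHAND2 libraries, which in turn lay below siCTR. The siMYCN change was -0.43 (standard error 0.05, adjusted p = 1.4e-05). The gene of its partner subunit, FARSA, measured 79.5 ± 1.84, 74.1 ± 3.33 and 71.2 ± 5.87 CPM in siCTR, siMYCN and siHAND2 and was not called in siMYCN (-0.10, adjusted p = 0.184). Under quantile normalization FARSA was called lower there.

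VARS1 (chromosome 6, 31777518 to 31795752), the valyl enzyme, measured 171, 167 and 158 CPM in the siCTR libraries, 137, 118 and 123 in the siMYCN libraries and 143, 136 and 120.3 in the siHAND2 libraries. The knockdown libraries all lay below the control and overlapped each other, with a siMYCN change of -0.39 (standard error 0.06, adjusted p = 0.000158). YARS1, the tyrosyl enzyme, fell by 0.21 (adjusted p = 0.0012). NARS1, the asparaginyl enzyme, fell by 0.13 (adjusted p = 0.0258), a call that was lost without siCTR replicate 1 or 3 or siMYCN replicate 1 or 2 (adjusted p = 0.106, 0.0778, 0.0575 and 0.102). The NARS1 call was also lost with no intensity trend.

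GARS1 (chromosome 7, 30594838 to 30634033), the glycyl enzyme of both compartments, measured 179, 176 and 175 CPM in the siCTR libraries, 159, 153 and 159 in the siMYCN libraries and 182, 172 and 176 in the siHAND2 libraries. The siMYCN libraries lay below all others, while siHAND2 overlapped the control. The siMYCN change was -0.17 (standard error 0.04, adjusted p = 0.00289). TARS3 fell by 0.23 (adjusted p = 0.0136, or 0.0554 without siMYCN replicate 2).

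WARS1 (chromosome 14, 100333790 to 100376805), the tryptophanyl enzyme, was the cytosolic gene that rose. It measured 62.7, 61.7 and 62.4 CPM in the siCTR libraries, 75.5, 70.4 and 73.1 in the siMYCN libraries and 65.8, 60.8 and 57.3 in the siHAND2 libraries. The siMYCN libraries stood above all siCTR and siHAND2 libraries, and the change was 0.22 (standard error 0.05, adjusted p = 0.00302). WARS1 shares 388 bases with WDR25 on the opposite strand, which changed by 0.28 in siMYCN and stood at 15.0% of the level of WARS1. The part of WDR25 in this value was not tested.

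SARS1 and CARS1 were called in no comparison. SARS1 measured 239, 244 and 243 CPM in the siCTR libraries, 247, 238 and 247 in the siMYCN libraries and 232, 229 and 232 in the siHAND2 libraries, and its interval of log2 fold change was -0.07 to 0.09 in siMYCN and -0.14 to 0.01 in siHAND2. Its siHAND2 libraries lay below all others. CARS1, the cysteinyl enzyme, measured 50.5, 50.2 and 53.6 CPM in the siCTR libraries, 53.4, 50.1 and 55.2 in the siMYCN libraries and 55.1, 53.6 and 54.5 in the siHAND2 libraries, with intervals of -0.06 to 0.15 and -0.02 to 0.19. Its siHAND2 libraries lay above those of siCTR and overlapped those of siMYCN. Changes inside those intervals remain possible. The small siMYCN values of SARS1 and CARS1 turned from above to below 0 under median-ratio rescaling and quantile normalization, and SARS1 was then called lower in siHAND2.

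Of the 17 mitochondrial enzymes, 7 fell in siMYCN (MARS2, EARS2, PARS2, SARS2, IARS2, NARS2 and WARS2), 3 rose (AARS2, VARS2 and HARS2) and 7 were not called. Their median log2 fold change was -0.13. MARS2 (chromosome 2, 197705369 to 197708395), the mitochondrial methionyl enzyme, measured 10.4, 11.1 and 10.3 CPM in the siCTR libraries, 6.52, 7.02 and 7.57 in the siMYCN libraries and 7.93, 8.84 and 9.18 in the siHAND2 libraries. Its siMYCN libraries lay below all siHAND2 libraries, which lay below all siCTR libraries. The siMYCN change, -0.53 (standard error 0.08, adjusted p = 0.000104) came at a low level near 10 CPM in the control, and with a pseudocount of 5 it was -0.38.

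EARS2 (chromosome 16, 23520754 to 23557731), the mitochondrial glutamyl enzyme, measured 55.9, 57.7 and 59.9 CPM in the siCTR libraries, 45.8, 41.4 and 45.5 in the siMYCN libraries and 48.3, 46.8 and 46.1 in the siHAND2 libraries. The 3 groups did not overlap, and the siMYCN change was -0.38 (standard error 0.05, adjusted p = 3.65e-05). EARS2 shares 1242 bases on the same strand with GGA2, which changed by -0.18 in siMYCN and -0.16 in siHAND2, both called lower. The part of GGA2 in the value of EARS2 was not tested. IARS2 and NARS2, for isoleucine and asparagine, fell by 0.21 and 0.20 (adjusted p = 0.00116 and 0.00619).

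PARS2, for proline, fell by 0.28 (adjusted p = 0.0135), and lost the call without siCTR replicate 1 or siMYCN replicate 1 (adjusted p = 0.0503 and 0.0504). The PARS2 call was also lost with no filter on low values. SARS2, for serine, fell by 0.26 (adjusted p = 0.0197), but not past the threshold without siCTR replicate 2, siMYCN replicate 2 or siMYCN replicate 3 (adjusted p = 0.0683, 0.0517 and 0.104). SARS2 shares 216 bases with MRPS12, whose siMYCN change was -0.21 (called lower), and its part was not tested. WARS2 fell by 0.20 (adjusted p = 0.0364), and the call was lost without siCTR replicate 1 or 3 or siMYCN replicate 1 or 2 (adjusted p = 0.184, 0.0535, 0.0953 and 0.103). With no filter on low values the WARS2 call was lost as well.

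AARS2 (chromosome 6, 44298731 to 44313347), the mitochondrial alanyl enzyme, moved in opposite directions in the knockdowns. It measured 93.6, 87.9 and 98.7 CPM in the siCTR libraries, 126, 112 and 119 in the siMYCN libraries and 68.4, 65.6 and 61.6 in the siHAND2 libraries. The groups were fully apart, with siMYCN highest, siCTR between and siHAND2 lowest. The changes were 0.35 (standard error 0.06, adjusted p = 0.000162) in siMYCN, -0.51 (standard error 0.06, adjusted p = 3.09e-06) in siHAND2 and -0.86 (standard error 0.06, adjusted p = 5.01e-09) between the knockdowns. AARS2 shares 8776 bases with TMEM151B on the opposite strand, which measured 116 ± 4.94, 208 ± 20.0 and 90.6 ± 9.03 CPM in siCTR, siMYCN and siHAND2. TMEM151B changed by 0.84, -0.35 and -1.19 in the same 3 comparisons, all called and all in the direction of AARS2. How far reads of TMEM151B enter the AARS2 values was not tested.

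VARS2 and HARS2 were the other mitochondrial genes called higher in siMYCN. VARS2, for valine, measured 26.4, 24.7 and 24.1 CPM in the siCTR libraries, 30.6, 28.6 and 27.6 in the siMYCN libraries and 28.8, 25.7 and 26.8 in the siHAND2 libraries, with siMYCN above siCTR but in part within siHAND2. Its change was 0.20 (standard error 0.06, adjusted p = 0.0206), and the call was lost without siCTR replicate 2 or 3 or siMYCN replicate 1 (adjusted p = 0.0672, 0.0809 and 0.0966) and under both rescalings (adjusted p = 0.122 for median-ratio and 0.0818 for quantile). HARS2, for histidine, measured 37.7, 36.0 and 36.1 CPM in the siCTR libraries, 42.4, 38.5 and 40.1 in the siMYCN libraries and 37.0, 35.7 and 37.5 in the siHAND2 libraries, a small difference of 0.14 (standard error 0.05, adjusted p = 0.0488). That call was lost in 9 of 15 alternatives, including those without siCTR replicate 1, 2 or 3 or siMYCN replicate 1 or 3 (adjusted p = 0.0627, 0.142, 0.126, 0.203 and 0.0976). HARS2 also shares 108 bases with HARS1 and 626 with ZMAT2.

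RARS2, for arginine, measured 51.4, 51.5 and 53.7 CPM in the siCTR libraries, 55.2, 57.0 and 52.6 in the siMYCN libraries and 52.4, 50.9 and 54.6 in the siHAND2 libraries and YARS2, for tyrosine, 19.3, 21.9 and 21.9 CPM in the siCTR libraries, 19.9, 19.7 and 20.0 in the siMYCN libraries and 18.5, 21.4 and 19.8 in the siHAND2 libraries. Their groups overlapped in every comparison and neither was called. For RARS2 the interval of log2 fold change was -0.03 to 0.18 in siMYCN and -0.09 to 0.12 in siHAND2. YARS2 shares 18161 bases with DNM1L, a gene on the opposite strand at 1018% of its level, so its values carry that uncertainty. In all, 25 of the 41 members overlap another gene in the table, 15 of them an opposite-strand gene at more than 10% of their own level.

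**Figure D3:**
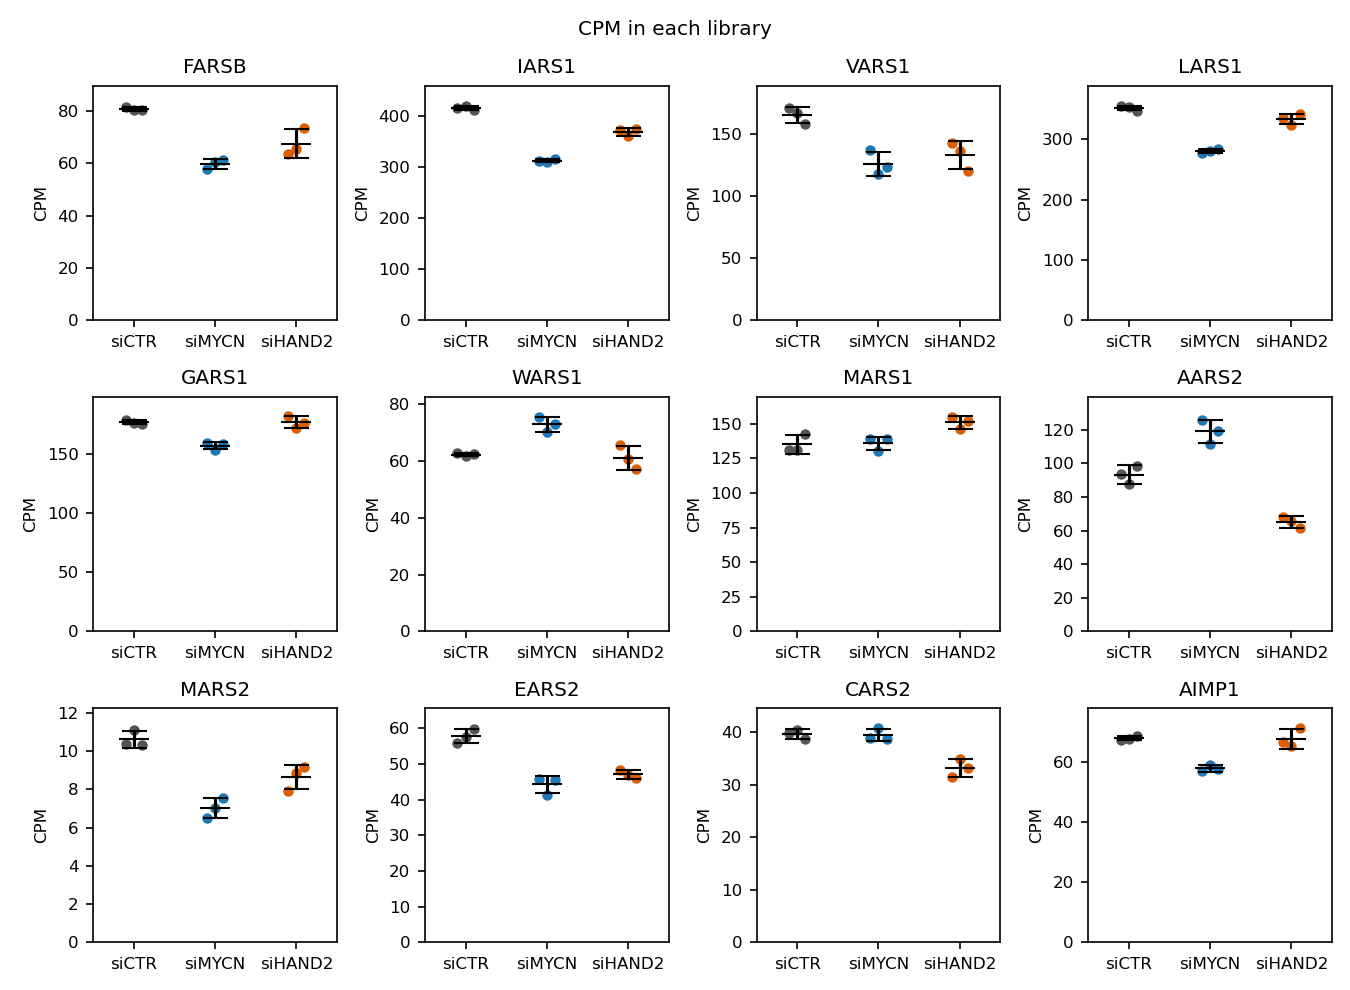
CPM of 12 members in each of the 9 libraries (points), with the mean and SD of each group of 3 as bars and every axis from 0. IARS1, FARSB and MARS2 are lowest in siMYCN, AARS2 rises in siMYCN and falls in siHAND2, and WARS1 is highest in siMYCN.

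In siHAND2, 16 of the 41 genes were lower than in siCTR (39.0%) and 1 was higher (2.44%). Over all genes 11.8% were called lower and 18.1% higher, 29.9% in all. The median log2 fold change was -0.08 over the members and 0.04 over all genes. All 3 siHAND2 libraries lay below all siCTR libraries for 21 members (16.6% of all genes) and above them for 3 (25.8%), against 42.4% of all genes in either direction. This comparison uses the same 3 control libraries as the previous one, so likeness between them is not independent. Under median-ratio rescaling 17.2% of all genes and 21 of the 41 members were called lower.

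By compartment, of the 20 cytosolic genes, 7 fell and 1 rose, with a median of -0.07, and of the 17 mitochondrial genes 8 fell and 0 rose, with a median of -0.15 (8 had an unadjusted limma p under 0.05 in either direction). Over all genes 11.8% were called lower and 18.1% higher, and 5881 of 14495 had such an unadjusted limma p. The cytosolic count lower was 11 under median-ratio rescaling, with 0 higher, and 10 under quantile normalization. The mitochondrial counts lower were 8 and 9 under these settings, and the shares of all genes lower 17.2% and 14.9%. The summed cytosolic level was 3485 ± 19.9 CPM in siCTR, 3052 ± 48.7 CPM in siMYCN and 3276 ± 87.7 CPM in siHAND2 (SD, n = 3 libraries each), or 87.6% and 94.0% of the control. The summed mitochondrial level was 766 ± 7.48 CPM in siCTR, 738 ± 13.3 CPM in siMYCN and 672 ± 7.85 CPM in siHAND2, or 96.4% and 87.8%. The cytosolic sum was thus lowest in siMYCN and the mitochondrial sum lowest in siHAND2, with no overlap between any groups in either. Without AARS2, a sum added after seeing the data, the mitochondrial values were 92.0% and 90.3% of the control, and the ranges of the knockdowns, 613 to 625 and 599 to 618 CPM, overlapped.

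**Figure D4:**
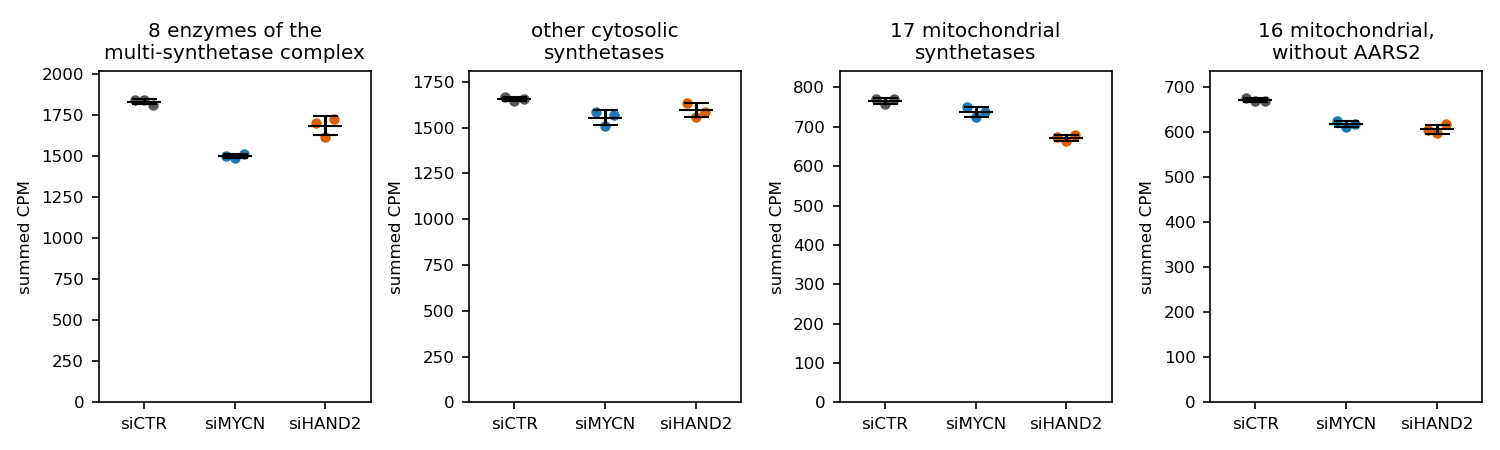
Summed CPM in each of the 9 libraries (points; bars are the mean and SD of 3) of the 8 complex enzymes, the 12 other cytosolic enzymes, the 17 mitochondrial enzymes and the 16 left without AARS2, with axes from 0. The complex enzymes are lowest in siMYCN (81.9% of siCTR) and the mitochondrial enzymes in siHAND2 (87.8% of siCTR), and without AARS2 the knockdowns overlap.

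Within the complex, 4 of 8 enzymes fell in siHAND2 and MARS1 rose, with a median of -0.13. QARS1 changed by -0.32 (standard error 0.06, adjusted p = 0.000475) and IARS1 by -0.17 (adjusted p = 0.00217). EPRS1 changed by -0.14 (adjusted p = 0.0263) and was not called without siCTR replicate 1 or 2 or siHAND2 replicate 2 (adjusted p = 0.0905, 0.0778 and 0.142). Its call was also lost with no intensity trend. KARS1 (-0.11, adjusted p = 0.0606) was not called, but was called lower in 5 of 15 alternatives. These were median-ratio rescaling, quantile normalization, a replicate block, and the fits without siCTR replicate 3 or siHAND2 replicate 1.

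MARS1, the cytosolic methionyl enzyme, measured 131, 131 and 143 CPM in the siCTR libraries, 139, 131 and 139 in the siMYCN libraries and 155, 146 and 152 in the siHAND2 libraries. The siHAND2 libraries lay above all siCTR and siMYCN libraries, and the change was 0.16 (standard error 0.05, adjusted p = 0.0154). This call, which was the single rise, was lost without siCTR replicate 1 or 2 or siHAND2 replicate 1 (adjusted p = 0.0759, 0.0778 and 0.0515), under median-ratio rescaling (0.1) and without an intensity trend (0.0538). MARS2 fell instead, by 0.27 (standard error 0.08, adjusted p = 0.0201), which was lost without siCTR replicate 2 or siHAND2 replicate 1 (adjusted p = 0.0866 and 0.0853) and with no filter on low values (0.0532). The genes for the cytosolic and the mitochondrial methionyl enzyme thus carried opposite calls in siHAND2.

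Outside the complex, VARS1 changed by -0.31 (standard error 0.06, adjusted p = 0.00129) and FARSB by -0.26 (standard error 0.05, adjusted p = 0.00162) in siHAND2. FARSA changed by -0.16 (adjusted p = 0.0436), a call lost in 8 of 15 alternatives, among them those without any 1 of the siCTR libraries or without siHAND2 replicate 2 or 3. The 8 mitochondrial genes that fell were AARS2, EARS2, MARS2, NARS2, CARS2, IARS2, LARS2 and TARS2. EARS2 changed by -0.29 (standard error 0.05, adjusted p = 0.000483) and NARS2, which measured 56.3, 55.7 and 52.4 CPM in the siCTR libraries, 46.2, 47.5 and 48.7 in the siMYCN libraries and 44.7, 43.8 and 48.5 in the siHAND2 libraries, by -0.26 (standard error 0.05, adjusted p = 0.00133). For NARS2 both knockdowns lay below the control and overlapped each other.

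CARS2, for cysteine, measured 39.9, 40.4 and 38.7 CPM in the siCTR libraries, 39.0, 40.8 and 38.8 in the siMYCN libraries and 31.5, 35.0 and 33.1 in the siHAND2 libraries. Its siHAND2 libraries lay below all 6 others, and the change was -0.25 (standard error 0.05, adjusted p = 0.00194) in siHAND2 and -0.25 (standard error 0.05, adjusted p = 0.00223) against siMYCN. CARS2 shares 868 bases with ING1 on the opposite strand, which rose by 0.27 in siHAND2, opposite to CARS2. IARS2 and LARS2 changed by -0.23 and -0.18 (adjusted p = 0.000578 and 0.00841). TARS2 changed by -0.15 (adjusted p = 0.0413), lost without siCTR replicate 1 or 2 or siHAND2 replicate 2 (adjusted p = 0.1, 0.185 and 0.148). Its call was also lost with no filter on low values, with no intensity trend and with the 2 groups alone.

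Set side by side, 11 members were called lower in both knockdowns, among them the cytosolic EPRS1, FARSB, IARS1, QARS1 and VARS1, the mitochondrial EARS2, IARS2, MARS2 and NARS2, and the scaffold AIMP2. A further 11 were called lower in siMYCN and not in siHAND2, and 4 (CARS2, FARSA, LARS2 and TARS2) in siHAND2 and not in siMYCN. AARS2 was called higher in siMYCN and lower in siHAND2, and 10 members were called in neither. Whether such members differ between the knockdowns is given by the direct comparison. The shares of all genes with these joint patterns were not counted. Both comparisons use the same siCTR libraries, so joint calls are not independent.

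Directly compared, 9 of the 41 members were higher in siHAND2 than in siMYCN and 3 were lower (29.3% in all). The higher count was 5 with no intensity trend, 5 without siMYCN replicate 2 and 6 without siMYCN replicate 1 (with 3, 4 and 3 lower), and under quantile normalization 13 were higher and 3 lower. In these settings, in the same order, 9.82%, 9.57%, 8.04% and 14.3% of all genes were called higher. The shares of all genes called lower were 13.8%, 13.9%, 12.1% and 13.3%. In the main fit 11.4% of all genes were called higher and 15.5% lower, 26.9% in all. The median difference was 0.08 over the members and -0.01 over all genes. Libraries did not overlap for 14 members higher and 5 lower in siHAND2, against 17.1% and 21.6% of all genes, or 38.7% in either direction. The higher members were 4 complex enzymes (IARS1, LARS1, MARS1 and RARS1), the scaffold AIMP1, the other cytosolic enzymes FARSB, GARS1 and YARS1, and the mitochondrial MARS2.

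LARS1 (chromosome 5, 146110566 to 146182696) measured 355, 354 and 348 CPM in the siCTR libraries, 277, 281 and 284 in the siMYCN libraries and 336, 325 and 342 in the siHAND2 libraries. Its siMYCN libraries lay below all siHAND2 libraries, and those below all siCTR libraries. It differed by 0.25 (standard error 0.04, adjusted p = 9.14e-05) between the knockdowns and was not called between siHAND2 and siCTR (-0.08, adjusted p = 0.141). Under median-ratio rescaling LARS1 was called lower in siHAND2. IARS1 differed by 0.24 (standard error 0.04, adjusted p = 0.000113), AIMP1 by 0.22 (standard error 0.05, adjusted p = 0.0017) and GARS1 by 0.17 (standard error 0.04, adjusted p = 0.00381). GARS1 shares 449 bases with the divergent transcript GARS1-DT, which was 0.31 higher and stood at 13.6% of the level of GARS1, and its part was not tested.

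MARS2 differed by 0.26 (standard error 0.08, adjusted p = 0.0249), which was lost without siMYCN replicate 1 or 2 or siHAND2 replicate 2 or 3 (adjusted p = 0.108, 0.0573, 0.0751 and 0.0793). FARSB differed by 0.17 (adjusted p = 0.0264, or 0.108 without siMYCN replicate 1 and 0.0933 without siHAND2 replicate 3). RARS1 and MARS1 differed by 0.16 and 0.15 (adjusted p = 0.0168 and 0.0242). RARS1 lost its call without siMYCN replicate 1 or 2 (adjusted p = 0.0763 and 0.0675), and MARS1 without siMYCN replicate 2 or siHAND2 replicate 1 (0.101 and 0.0718). YARS1 differed by 0.13 (adjusted p = 0.0362), lost without siMYCN replicate 2 or 3 or siHAND2 replicate 1 or 2 (adjusted p = 0.132, 0.0704, 0.0608 and 0.0855). With no intensity trend the calls of FARSB, RARS1, MARS1 and YARS1 were also lost. Those of FARSB and YARS1 were lost with the 2 groups alone, and that of MARS2 with no filter on low values.

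The members lower in siHAND2 than in siMYCN were AARS2, CARS2 and WARS1. WARS1 differed by -0.25 (standard error 0.05, adjusted p = 0.00167), and its neighbour WDR25 by -0.38. The complex as a whole, 8 enzymes and 3 scaffolds, held 5 members called higher and 0 lower by limma in this comparison (8 with an unadjusted p under 0.05 in either direction), with a median of 0.12, while the 17 mitochondrial genes held 1 higher and 2 lower, with a median of -0.01. Of the mitochondrial genes 5 had an unadjusted p under 0.05. Over all genes 11.4% were called higher and 15.5% lower here, and 5528 of 14495 had such an unadjusted limma p.

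Cytosolic and mitochondrial genes for the same amino acid could be set beside each other for 17 amino acids, with EPRS1 used for both glutamate and proline and FARSA for phenylalanine. In siMYCN both genes fell for glutamate, isoleucine, asparagine and proline (4 of 17), and neither was called for cysteine, phenylalanine and threonine. The calls were opposite for valine, where VARS1 fell and VARS2 rose, and for tryptophan, where WARS1 rose and WARS2 fell. In siHAND2 both genes fell for glutamate and isoleucine (2 of 17), the cytosolic gene alone was called lower for 4 amino acids and the mitochondrial gene alone for 5. The pair for methionine had opposite calls there. A pair with 1 gene called and the other not is not thereby shown to differ.

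**Figure D5:**
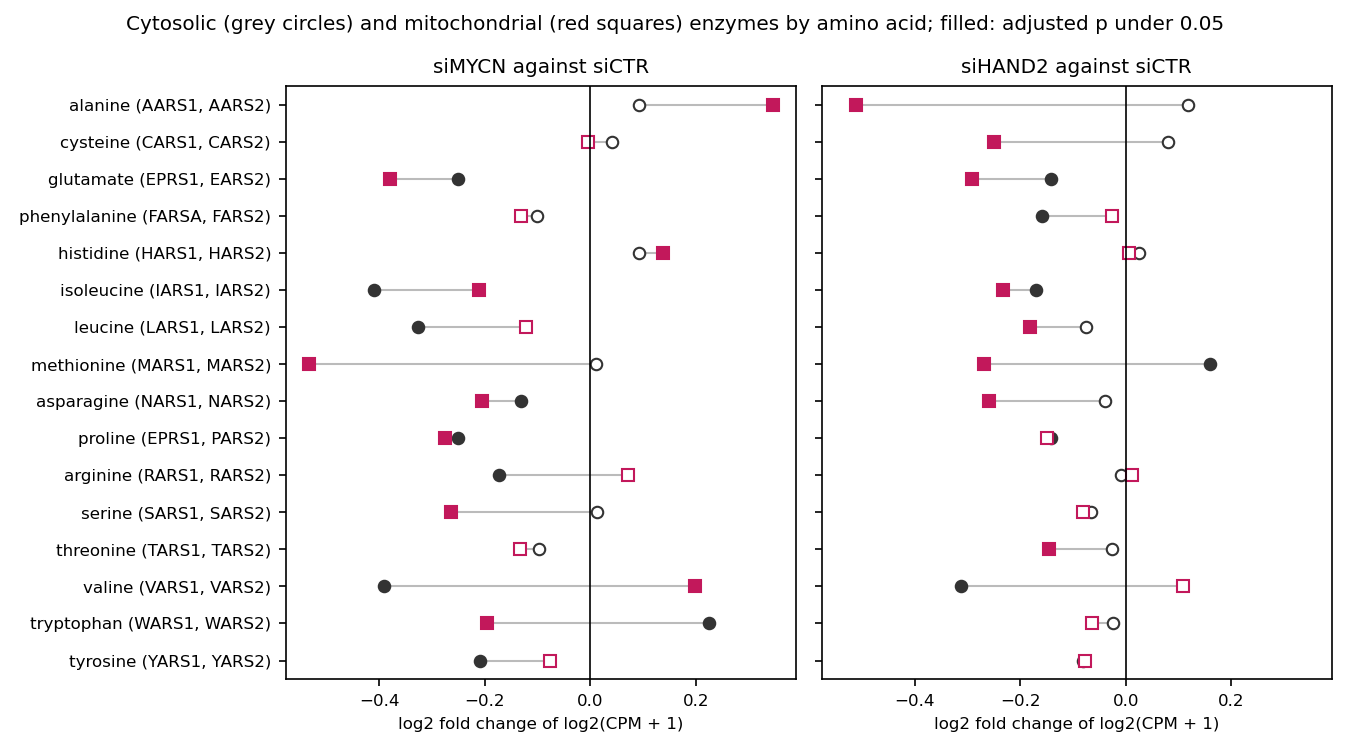
Log2 fold change against siCTR of the cytosolic and the mitochondrial gene for each of 16 amino acids, joined by a line, in siMYCN and in siHAND2 on the same scale, filled where the adjusted p is under 0.05. For valine and tryptophan the siMYCN calls are opposite, and for alanine the mitochondrial gene AARS2 lies on opposite sides of 0 in the panels.

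The enzymes also fall into a pair of catalytic classes. Of 19 genes of class I, whose catalytic domain is a Rossmann fold, 11 fell and 2 rose in siMYCN, with a median of -0.20. Of 18 genes of class II, built on an antiparallel sheet, 8 fell and 2 rose, with a median of -0.13. The shares were 57.9% and 44.4% lower and 10.5% and 11.1% higher, against 11.4% lower and 24.5% higher over all genes. EPRS1, which charges both glutamate and proline tRNAs, was counted in class I only, although PARS2, for proline, was in class II. TARS3 was counted in neither class. In siHAND2 the counts were 9 lower and 1 higher of 19, and 6 lower and 0 higher of 18 (8 with an unadjusted limma p under 0.05), with medians of -0.08 in both. There 52.6% of class I and 33.3% of class II were called, against 29.9% of all genes (11.8% lower and 18.1% higher). Over all genes 5881 of 14495 had an unadjusted limma p under 0.05.

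ATF4 itself measured 323 ± 5.77, 319 ± 4.72 and 326 ± 13.1 CPM in siCTR, siMYCN and siHAND2 (SD, n = 3 libraries each). It was not called, with intervals of -0.10 to 0.07 and -0.07 to 0.10 on the log2 scale. Of 12 cytosolic synthetases known as genes of the amino acid response, 6 fell and 1 rose in siMYCN, and 2 fell and 1 rose in siHAND2. Of the other 8 cytosolic genes, 6 fell in siMYCN and 5 in siHAND2. Over all genes 11.4% were called lower and 24.5% higher in siMYCN, and 11.8% and 18.1% in siHAND2. In siHAND2 25% of the 12 and 62.5% of the other 8 were called, against 29.9% of all genes.

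Of 34 tested genes of the amino acid response that are not synthetases, ATF4 among them, 14 fell in siMYCN. A further 3 rose there (ATF5, SLC1A4 and SLC38A2), and the median over the 34 was -0.11. The smallest p-values there belonged to DDIT4, an inhibitor of mTORC1 (-0.65), the mitochondrial folate enzyme genes MTHFD2 (-0.41) and SHMT2 (-0.44), and SLC7A5, a transporter of large neutral amino acids (-0.60). In siHAND2 9 fell and 3 rose, with a median of -0.05. The glutamine transporter gene SLC1A5 changed by -0.72 (standard error 0.05, adjusted p = 1.26e-08) and SLC38A2, another transporter of neutral amino acids, by 0.34 (standard error 0.04, adjusted p = 1.05e-05), in opposite directions. ALDH18A1, of proline synthesis, and SHMT2 changed by -0.31 and -0.27. The list thus held called members on both sides in both knockdowns, with more lower than higher. In siMYCN 41.2% of it fell and 8.82% rose, against 11.4% and 24.5% of all genes. In siHAND2 26.5% fell and 8.82% rose, against 11.8% and 18.1% of all genes.

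Of 25 further genes that act on tRNAs or deliver charged tRNAs to the ribosome, 12 fell and 1 (EEF1A2) rose in siMYCN, with a median of -0.16. These shares, 48% lower and 4% higher, stood against 11.4% and 24.5% of all genes. EEF1G and EEF1B2, subunits of the exchange factor of elongation factor eEF1A, changed by -0.43 (standard error 0.04, adjusted p = 1.8e-06) and -0.42 (standard error 0.04, adjusted p = 2.17e-06). XPOT, which exports tRNAs from the nucleus, changed by -0.33 and DTD2, a deacylase of mischarged tRNAs, by -0.27. In siHAND2 10 of the 25 fell and 0 rose by limma (12 with an unadjusted p under 0.05), with a median of -0.13. They included ELAC2, which trims the 3′ end of tRNA precursors (-0.20), the mitochondrial elongation factor gene TUFM (-0.20), EEF1G (-0.17) and XPOT (-0.18). In siHAND2 40% of the 25 were called lower, while 11.8% of all genes were lower and 18.1% higher. Over all genes 5881 of 14495 had an unadjusted limma p under 0.05 there. Directly compared, 5 of the 25 were higher and 2 lower in siHAND2 than in siMYCN, and the higher ones included EEF1G (0.25) and EEF1B2 (0.26). In that comparison 28% of the 25 were called, against 26.9% of all genes (11.4% higher and 15.5% lower).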

How the data were processed

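RNA sequencing of LAN5 cells gave 9 libraries, 3 per siRNA. Values are CPM in 1 table deposited by the authors, with reads aligned by STAR 2.5.1 and handled in Partek, per the submitters' processing notes, which also name hg19 and GRCh37. The counting rule, its use of strand and the filters are not given in the sources used here. Starts of 38 of 41 members lay within 5000 bases of RefSeq GRCh38.p14 starts and 3 within 5000 of GRCh37 starts, so positions are given as GRCh38, with the end 1 base before the listed stop. Only 79.4% to 80.9% of low values were whole multiples (within 0.02) of a library's step, under the 95% asked for, so no count model was used. Transcript lengths come from a GRCh37 annotation by symbol.

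Genes with at least 1 CPM in 3 of 9 libraries (14495, leaving out 10589) were tested on log2(CPM + 1), which understates changes of low genes, with limma 3.58.1 in R 4.3.3 (1 mean per group, intensity trend, two-sided, Benjamini-Hochberg over all genes, threshold 0.05). The test was checked on simulated data in which few genes changed, with rises and falls in equal number. That check does not cover the many and uneven calls found here. Every member could be named. Per-library values were given for the 6 largest rises and falls called without overlap against siCTR, the 4 largest differences between knockdowns, scaffolds, GARS1, KARS1 and up to 4 members without change, and 4 genes by smallest p of each other list. Those of CARS2 were given as well, although it falls outside this rule. Members and lists were chosen with earlier results of these data known. Alternatives were pseudocounts of 0.1 and 5, no filter, a filter of 5 CPM, median-ratio and quantile scaling, no trend, a replicate block, 2 groups alone and each library left out. Protein sequences were not used here. Values of single genes for part of the members are not reported here.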

Additional observations from a re-analysis of the deposited data

How the results depend on the processing

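Each of 123 member comparisons (41 genes, 3 comparisons) was recomputed under 15 alternatives. Of 55 calls, 38 held under all 15, 17 were lost under at least 1 and none changed direction. Of 68 comparisons not called, 20 were called under at least 1 alternative and 21 changed sign. Members called numbered 23 to 30 in siMYCN, 14 to 21 in siHAND2 and 8 to 16 between the knockdowns under the alternatives that keep all libraries, and 21 to 25, 12 to 18 and 9 to 11 with 1 library left out. Over all genes the share called was 18.5% to 42.6%, 16.2% to 35.1% and 14.9% to 32.3% where all libraries were kept. With 1 library left out it was 27.7% to 31.1%, 21.2% to 29.9% and 20.2% to 27.5%. Same-numbered libraries had deviations correlated at -0.04 to 0.31, over 0.1 in 6 of 9 pairs. These 6 were the pairs numbered 1 and those numbered 3. Libraries with different numbers had correlations of -0.30 to 0.14. The main fit treated libraries as unpaired, as the same-numbered correlation was not over 0.1 in every pair. With a replicate block, 28, 19 and 14 members were called, against 40.7%, 35.1% and 32.3% of all genes. The block lost no call and added LARS2 and TARS2 (lower) in siMYCN, KARS1 (lower) and AARS1 (higher) in siHAND2, and KARS1 (higher) and HARS2 (lower) between the knockdowns.

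The siMYCN medians were -0.23 (cytosolic) and -0.19 (mitochondrial) under both median-ratio rescaling and quantile normalization, and with 1 library left out the mitochondrial median ran from -0.15 to -0.10. In siHAND2 the cytosolic median was -0.13 under median-ratio rescaling. The mitochondrial median there was -0.0968 with a pseudocount of 5, -0.20 under median-ratio rescaling and -0.18 under quantile normalization, and -0.16 to -0.11 with 1 library left out. Between the knockdowns the mitochondrial median turned to 0.01 under quantile normalization and ran from -0.05 to 5.07e-05 with 1 library left out. The cause was not tested. The share of all calls that were lower was 31.7% in siMYCN, 50.4% under median-ratio rescaling and 50.7% under quantile normalization, and among members 84.6%, 92.9% and 93.3%. In siHAND2 it was 39.4%, 58.0% and 52.2% over all genes, and 94.1%, 100% and 95.2% among members.

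Among uncalled genes, signs turned under median-ratio rescaling and quantile normalization in siMYCN for CARS1 (-0.0198 and -0.0152), MARS1 (-0.0506 and -0.0358) and SARS1 (-0.0481 and -0.0363). In siHAND2 they turned for EEF1E1 (-0.0363 and -0.0314), HARS1 (-0.0315 and -0.00957), HARS2 (-0.0498 and -0.0143) and RARS2 (-0.0439 and -0.0182). Between the knockdowns they turned for YARS2 (0.00170 and 0.0330) and, under quantile normalization, IARS2 (0.00302) and TARS2 (0.0128). With 1 library left out, uncalled genes with a change of sign ran as follows. In siMYCN CARS2 ran from -0.0269 to 0.00941 and MARS1 from -0.0102 to 0.0510.
In siHAND2 the ranges were, for AIMP1 from -0.0427 to 0.0226, EEF1E1 from -0.0439 to 0.0515, FARS2 from -0.0550 to 0.00256, GARS1 from -0.0220 to 0.0185, HARS2 from -0.00894 to 0.0264, RARS1 from -0.0402 to 0.0122, RARS2 from -0.0143 to 0.0353, TARS1 from -0.0534 to 0.0175 and WARS1 from -0.0763 to 0.0210.
Between the knockdowns the ranges were, for AARS1 from -0.0253 to 0.0570, FARSA from -0.103 to 0.00937, IARS2 from -0.0519 to 5.07e-05, QARS1 from -0.0142 to 0.0764, TARS2 from -0.0350 to 0.0143 and YARS2 from -0.0546 to 0.0469.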
